A study of Mus musculus with 6 samples.

Results

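The fast-fibre troponins and sarcomere genes are 10 genes picked by name for their products in the contractile apparatus of fast skeletal fibres, namely Tnnt3, Tnni2, Tnnc2, Mylpf, Myl1, Tpm1, Actn3, Mybpc2, Mylk2 and Myoz1. Of these, 9 were measured among the 11239 genes listed for each library, and Tnnc2 was not analysed here. RNA was sequenced from the tibialis anterior, a shin muscle of the mouse, in 3 samples of young C57BL/6 mice at 3 months of age and 3 samples of aged C57BL/6 mice at 18 months. The labels give no treatment or altered allele for either group, and the sources used here do not give the sex of the animals. Nothing in the labels says whether each sample came from its own animal, so the p-values measure the spread between these samples, which may be technical.

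In a sarcomere, thick filaments of myosin pull on thin filaments of actin that are anchored in the Z-discs. Troponin and tropomyosin on the thin filament block this pull until calcium binds troponin C, and the light chains and myosin-binding protein C adjust the myosin heads. Most of these proteins come in forms made by separate genes in fast and in slow fibres, and the tibialis anterior of the mouse is built almost wholly of fast fibres. Transcript levels are given in FPKM, the count of sequenced fragments per kilobase of a gene's transcript and relative to the library's mapped fragments.

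Aged muscle had more mRNA of Tnnt3, Tpm1 and Mybpc2 and less of the myosin light chain genes Mylpf and Myl1 than young muscle, each by less than 1.3-fold. The Tnnt3 call was the weakest of the 5: it was lost in 9 of the 16 alternatives run, the replicate block (adjusted p = 0.0675) and 5 of the 6 fits without 1 library among them, and its direction turned in 1 of these 9. Tnnt3 was higher by 14.7%, Tpm1 by 18.4% and Mybpc2 by 23.1%, while Mylpf fell by 20.1% and Myl1 fell by 22.8% of the young mean. Tnni2, Mylk2, Actn3 and Myoz1 did not pass the test. All 9 genes measured passed the minimum of a mean of 1 FPKM and entered the test, limma on log2(FPKM + 1) across 7690 genes, with a call at an adjusted p under 0.05. Of the 9, 5 were called (55.6%), against 51.8% of all genes tested and 63.4% of the 112 genes at least as high as Mylk2. Without the minimum of 1 FPKM it was 2 of 9 (22.2%), against 40.8% of all 11172 genes then tested. The ages did not overlap in 6 of the 9 (66.7%), beside 62.8% of all genes tested. Of the called genes 3 were higher, with 27.3% of all genes tested called in that direction, and 2 were lower, against 24.5%. The median log2 change of the 9 genes was 0.08, and that of all genes tested was 0.02.

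For 4 of the 9 genes the RefSeq start-site table of GRCm38.p6 gives a window of 300 bases, from 250 bases before the start to 50 after it, and these 4 are among the 5 genes called. They are shown because the pair that fell, Mylpf and Myl1, can be set beside a pair that rose, Tpm1 and Mybpc2. The windows are chr7:127211358-127211657 on the plus strand for Mylpf, and on the minus strand chr1:66945007-66945306 for Myl1, chr9:67049164-67049463 for Tpm1 and chr7:44524620-44524919 for Mybpc2. Each is printed 5′ to 3′ along its gene, with 2 motifs in capitals. They are the E-box (CANNTG), which myogenic factors of the MyoD family bind, and the MCAT motif (CATTCC, read here on the opposite strand), which TEAD factors bind.
Mylpf: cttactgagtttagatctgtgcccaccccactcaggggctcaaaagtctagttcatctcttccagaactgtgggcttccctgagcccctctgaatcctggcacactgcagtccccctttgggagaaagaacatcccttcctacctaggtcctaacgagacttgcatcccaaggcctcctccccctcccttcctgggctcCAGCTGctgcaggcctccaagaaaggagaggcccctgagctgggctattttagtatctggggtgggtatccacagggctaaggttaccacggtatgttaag
Myl1: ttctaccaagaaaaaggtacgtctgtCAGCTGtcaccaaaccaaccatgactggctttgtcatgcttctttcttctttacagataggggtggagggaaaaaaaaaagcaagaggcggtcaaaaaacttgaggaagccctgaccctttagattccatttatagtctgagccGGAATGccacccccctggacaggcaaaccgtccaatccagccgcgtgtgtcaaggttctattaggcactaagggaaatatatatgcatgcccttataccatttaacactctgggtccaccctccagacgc
Tpm1: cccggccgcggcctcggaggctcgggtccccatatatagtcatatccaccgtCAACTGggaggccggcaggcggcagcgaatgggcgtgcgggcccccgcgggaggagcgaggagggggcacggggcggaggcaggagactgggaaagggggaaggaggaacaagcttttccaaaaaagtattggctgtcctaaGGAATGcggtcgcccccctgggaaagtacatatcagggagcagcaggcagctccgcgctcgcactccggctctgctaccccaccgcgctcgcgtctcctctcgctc
Mybpc2: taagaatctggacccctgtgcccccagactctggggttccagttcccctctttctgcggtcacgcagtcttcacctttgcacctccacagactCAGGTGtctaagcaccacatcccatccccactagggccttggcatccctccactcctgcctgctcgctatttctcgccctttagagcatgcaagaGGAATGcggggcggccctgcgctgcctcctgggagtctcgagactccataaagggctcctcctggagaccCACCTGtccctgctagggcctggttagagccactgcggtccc

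Both strands were searched, and no motif found in these windows overlapped another. An E-box was present in all 4 windows, once each in Mylpf, Myl1 and Tpm1 and at 2 places in Mybpc2, against 72.3% of all 32851 windows in the table. The MCAT motif was in Myl1, Tpm1 and Mybpc2, beginning 80, 56 and 62 bases before the start, against 14.7% of all windows, and these letters are not in the Mylpf window. TATAAA was found in the Myl1 window alone, on the opposite strand (13.6% of all windows). The MEF2 motif (3.19% of all windows) and the CArG box of serum response factor (1.63%) were in none of the 4. A match is a description of these letters and not a measured site. The Myl1 window starts from a RefSeq start 87 bases from the nearest GENCODE start, and those of the other 3 lie within 13 bases of one.

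These genes are among the most abundant transcripts of the muscle. Tnnt3 ranked 3 or 4 among the listed genes in every library, and Mylpf, Tnni2, Myl1 and Tpm1 lay between ranks 5 and 15. Mylk2, the lowest of the 9, ranked between 102 and 122. Together they held between 5.54% and 5.96% of all fragments in the young libraries and between 5.86% and 6.30% in the aged ones, and the ranges overlap. Their summed FPKM was 63635 ± 2239.5 in young and 63701 ± 2430.3 in aged muscle (SD, n = 3 each). The smallest count behind a value was 120613 fragments (Mylk2 in young replicate 2) and the largest 1535419 (Tnnt3 in aged replicate 1), so the spread between samples and not the depth limits the comparison.

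The order of the levels in young muscle was Tnnt3, Mylpf, Myl1, Tnni2, Tpm1, Actn3, Mybpc2, Myoz1 and Mylk2, with every neighbour separated in all 3 libraries except Myl1 and Tnni2. In aged muscle Tnni2 stood above Myl1, and the libraries overlapped between Mylpf and Tnni2 and between Tpm1 and Myl1, whose means were 7520.2 and 7495 FPKM. The authors' transcript length lay within 5 bases of the mean over the annotated transcripts for 8 of the 9 genes, short ones included, which raises the FPKM of genes with many short transcripts. Per kilobase of the longest annotated transcript instead, Tnni2 stood above Myl1 in young muscle (6951 ± 366 against 6164 ± 442), and Myoz1 above Mybpc2 (1381 ± 17.6 against 1339.6 ± 88.1), with overlapping libraries in both cases. In aged muscle Tnni2 then stood above Mylpf (7489.8 ± 31.2 against 6176 ± 484) and Myl1 above Tpm1 (4759 ± 368 against 3742 ± 181). The length is the same in both ages and does not enter a gene's change.

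**Figure D1:**
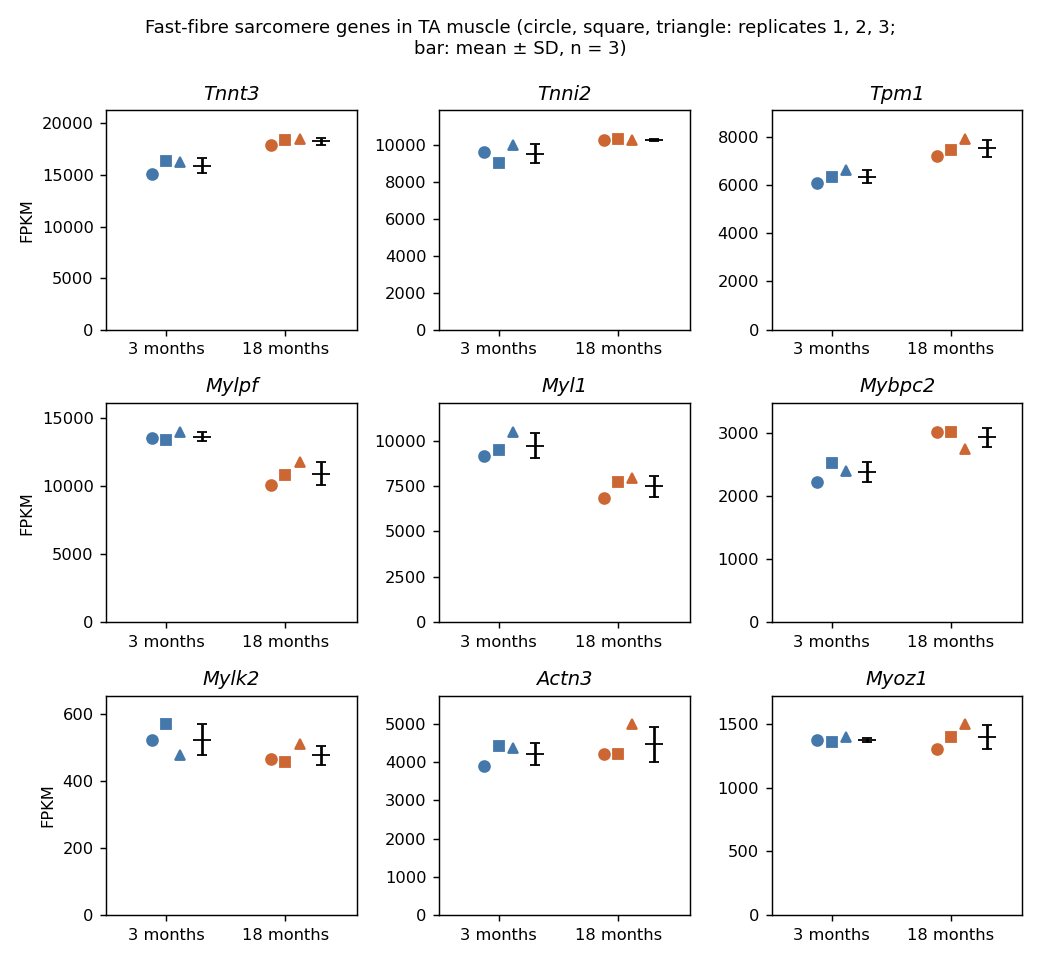
FPKM (vertical axes, from 0) of the 9 fast-fibre genes in each library at 3 months (blue) and 18 months (orange), with circles, squares and triangles for replicates 1, 2 and 3 and a bar for the mean ± SD, n = 3. The 3 aged libraries lie above the young ones for Tnnt3, Tnni2, Tpm1 and Mybpc2 and below them for Mylpf and Myl1, and the ages overlap for Mylk2, Actn3 and Myoz1.

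On the thin filament, troponin T, encoded by Tnnt3 in fast fibres, ties the troponin complex to tropomyosin (chromosome 7, 142498836 to 142516009, GRCm38 as listed in the deposited tables). The young libraries held 15110.1, 16393 and 16247 FPKM of Tnnt3, in the order of replicates 1, 2 and 3, and the aged libraries 17917, 18349 and 18494 FPKM. The lowest aged library lay above the highest young one. Its log2 change was 0.20 ± 0.06 (SE, limma adjusted p = 0.0292). That call was weak: the adjusted p was 0.0675 in the fit with the replicate number as a block, 0.0788 under median-of-ratios scaling, 0.212 without the minimum of 1 FPKM and 0.302 with quantile normalization, where the change was −0.066. It was also lost on leaving out any 1 library but young replicate 2 (0.0538 to 0.0777). Quantile normalization sets each value by the gene's rank in its library. Tnnt3 ranked 3 in each young library and 4, 3 and 4 in aged replicates 1, 2 and 3, so its turn there is one of rank. Prr33, annotated as a noncoding RNA in GENCODE M21, overlaps Tnnt3 on the opposite strand and had 163 ± 2.62 FPKM in young and 148 ± 6.70 FPKM in aged muscle. Reads of such overlapping genes cannot be told apart without strand, and the sources used here do not say whether the libraries kept it.

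Tnni2 encodes fast troponin I, the subunit that holds back the actin-myosin interaction at low calcium (chromosome 7, 142441808 to 142444410). It was at 9605, 8991 and 9985 FPKM in young and at 10237, 10315 and 10245 FPKM in aged muscle, in the order of the replicates. The groups did not overlap, and the aged libraries lay within a narrow span (SD 42.8) beside the young ones (SD 501). The log2 change of 0.11 ± 0.06 did not pass (limma adjusted p = 0.173). It passed in 2 of the 16 alternatives, where libraries were rescaled without the 20 highest genes (0.175, adjusted p = 0.0424) or to the nuclear-encoded genes (0.19, adjusted p = 0.0265). The change was smaller under median-of-ratios scaling (0.095, adjusted p = 0.28) and without young replicate 2 (0.068, adjusted p = 0.428). With quantile normalization, which follows only the rank, it was 0.00.

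Tpm1 encodes alpha-tropomyosin, the coiled coil that runs along actin and moves with troponin (chromosome 9, 67022590 to 67049406). Its levels were 6093, 6326 and 6635 FPKM in young replicates 1 to 3 and 7197, 7450 and 7914 FPKM in aged replicates 1 to 3, again with no overlap. The log2 change was 0.24 ± 0.06 (limma adjusted p = 0.0159). It kept its sign under every scaling tried and missed the threshold with quantile normalization (0.046, adjusted p = 0.478) and without the minimum of 1 FPKM (adjusted p = 0.0748).

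On the thick filament, Mylpf encodes the fast regulatory light chain, which wraps the lever arm of the myosin head and is phosphorylated (chromosome 7, 127208890 to 127214298). Mylpf was at 13559, 13356 and 13996 FPKM in young and at 10083, 10829.7 and 11786 FPKM in aged replicates 1, 2 and 3. All aged values lay below all young values. It fell by 0.33 ± 0.07 on the log2 scale (limma adjusted p = 0.00809), and the call was lost only in the fit without the minimum of 1 FPKM (0.0582) among the 16 alternatives run.

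Myl1 encodes the essential light chains of fast myosin (chromosome 1, 66924295 to 66945404). The young libraries had 9146, 9493 and 10488 FPKM and the aged ones 6838, 7718 and 7929.8 FPKM. The 2 ages were separated here too. Myl1 fell by 0.37 ± 0.08 on the log2 scale (limma adjusted p = 0.00773), and it stayed below the threshold in all 16 alternatives, with changes between −0.49 and −0.29.

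Mybpc2 encodes the fast form of myosin-binding protein C, which sits in stripes on the thick filament (chromosome 7, 44501699 to 44524656). It was measured at 2212, 2523 and 2385 FPKM in young and 3008, 3014 and 2746 FPKM in aged replicates 1, 2 and 3. Every aged library lay above every young one, and aged replicate 3, the highest aged library for Tnnt3, Tpm1, Mylpf and Myl1, was the lowest for Mybpc2. The log2 change was 0.30 ± 0.07 (limma adjusted p = 0.00996) and passed in all 16 alternatives (0.25 to 0.53). The noncoding gene Gm44646 overlaps it on the opposite strand and had 1.58 ± 0.490 FPKM in young and 3.55 ± 0.532 FPKM in aged muscle.

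Mylk2 encodes the skeletal muscle kinase that phosphorylates the product of Mylpf (chromosome 2, 152911352 to 152923068). It had 523, 568 and 477 FPKM in young and 464, 455 and 508 FPKM in aged replicates 1, 2 and 3. The groups overlapped, and the log2 change of −0.13 ± 0.08 did not pass (limma adjusted p = 0.188).

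At the Z-disc, Actn3 encodes alpha-actinin-3, the form of fast fibres that crosslinks actin filaments (chromosome 19, 4861223 to 4877909). Its values were 3889, 4415 and 4364 FPKM in young and 4203, 4215 and 4992 FPKM in aged replicates 1, 2 and 3. They overlapped (0.08 ± 0.09, limma adjusted p = 0.472), and aged replicate 3 alone stood above the young libraries. Myoz1 encodes myozenin 1, which binds alpha-actinin and calcineurin (chromosome 14, 20649102 to 20656540). Young libraries held 1372, 1359.8 and 1394 FPKM of it and aged libraries 1307, 1395 and 1497 FPKM. Its log2 change was 0.02 ± 0.06 (limma adjusted p = 0.777), and the aged libraries were spread more widely (SD 95.3) than the young (SD 17.5). With quantile normalization Myoz1 was at −0.13 (adjusted p = 0.0400).

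**Figure D2:**
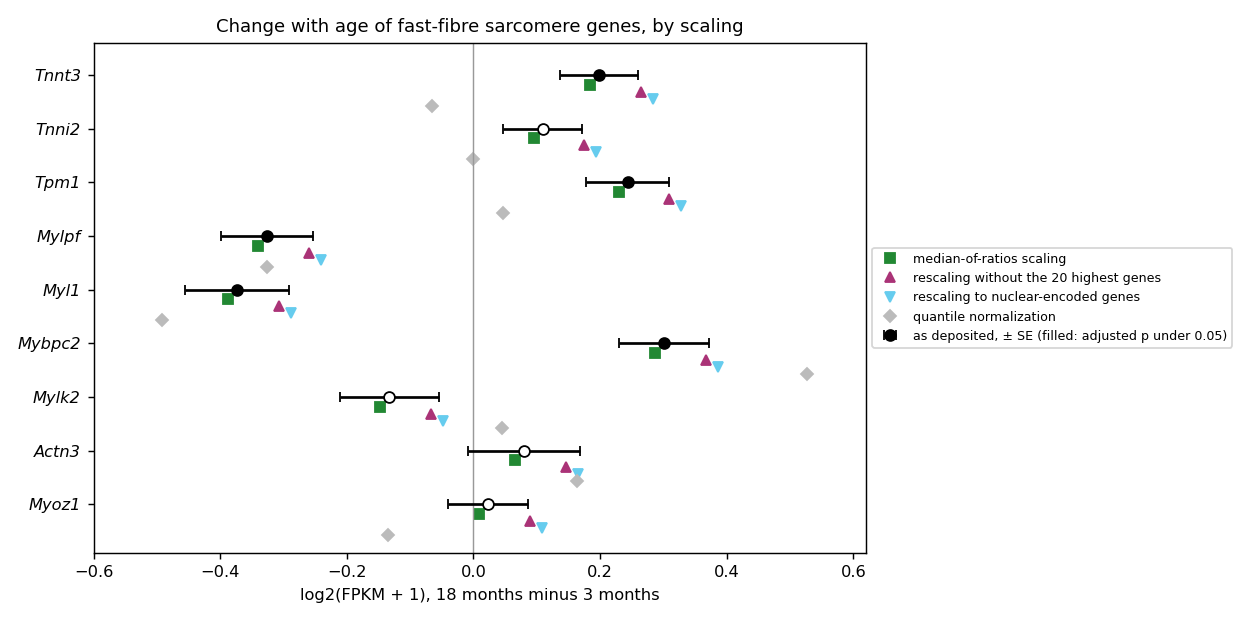
Log2(FPKM + 1) at 18 months minus 3 months (horizontal axis) for each gene, as deposited (circles with SE, filled where the adjusted p is under 0.05) and under 4 other scalings. Mylpf and Myl1 lie below 0 and Tpm1 and Mybpc2 above 0 under each scaling, while Tnnt3 turns from 0.20 to −0.066, Mylk2 from −0.13 to 0.046 and Myoz1 from 0.02 to −0.13 with quantile normalization.

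Ratios within a library do not depend on a factor applied to the whole library. The following were chosen after the values were seen and are given as a description. The 2 light chain genes kept a ratio of Mylpf to Myl1 of 1.41 ± 0.0740 in young and 1.45 ± 0.0450 in aged muscle (SD, n = 3), with overlapping libraries. On the thin filament Tnnt3 stood at 2.51 ± 0.0749 times Tpm1 in young and 2.43 ± 0.0817 times in aged muscle, and these overlapped as well. Other ratios on the thin filament differed with age, with no overlap: Tpm1 over Tpm2, the gene of beta-tropomyosin, was 1.23 ± 0.0435 in young and 1.78 ± 0.272 in aged muscle, and Tpm1 over the actin gene Acta1 was 0.211 ± 0.00688 and 0.333 ± 0.0490. The summed FPKM of Mylpf and Myl1 over that of Tnnt3, Tnni2 and Tpm1 was 0.737, 0.721 and 0.745 in young and 0.479, 0.514 and 0.538 in aged replicates 1, 2 and 3, with no overlap.

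The light chains were also set beside the fast myosin heavy chain genes Myh1, Myh2 and Myh4, whose products carry them. Myh4, of type 2B fibres, rose by 0.48 ± 0.07 and Myh1, of type 2X fibres, changed by −0.68 ± 0.10 on the log2 scale (limma adjusted p = 0.00141 and 0.00151). The summed FPKM of the 3 heavy chain genes was 10540.2 ± 430.5 in young and 10906 ± 241 in aged muscle, and the libraries overlapped. Mylpf over this sum was 1.33, 1.21 and 1.35 in young and 0.909, 0.985 and 1.11 in aged replicates 1, 2 and 3, all lower. The same ratio for Myl1 was 0.922 ± 0.0786 in young and 0.688 ± 0.0656 in aged muscle. For Mybpc2 it was 0.225 ± 0.00744 in young and 0.268 ± 0.00843 in aged muscle, with the aged libraries above the young.

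For 8 of the 9 genes a counterpart of slow fibres, or one used more broadly, was also measured, and the FPKM ratio of the fast gene to its counterpart was compared between the ages over the 8 pairs. The test and the log2 differences used the ratio with 1 FPKM added to both genes, while the printed ratios have none added. The added 1 FPKM makes the log2 difference smaller where the counterpart is low, as for Tnni1. With 3 libraries against 3 the exact two-sided permutation test cannot go below p = 0.10, so none of these pairs can pass. The ratio did not overlap between the ages in 6 of the 8 pairs, each at that smallest p (adjusted p = 0.133 over the pairs). It was lower in aged libraries in 3 of them and higher in 3. Of all genes tested, taken singly, 62.8% did not overlap between the ages, and the share among ratios of other gene pairs was not computed.

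Fast over slow troponin T, Tnnt3 to Tnnt1, was 2545, 2520.5 and 3314 in young and 1018, 1254 and 2214 in aged replicates 1, 2 and 3. Troponin I, Tnni2 to Tnni1, ran from 5114 to 7229 in young and from 1553 to 4149.8 in aged libraries. The regulatory light chains, Mylpf to Myl2, ran from 1585 to 2486 in young and from 415 to 1175 in aged libraries. In all 3 the slow gene made up a trace of the pair: Tnnt1 was on average 0.0364% of Tnnt3 plus Tnnt1 in young and 0.0743% in aged muscle. Tnnt1 itself was at 5.94, 6.50 and 4.90 FPKM in young and 17.6, 14.6 and 8.35 FPKM in aged replicates 1, 2 and 3, so aged replicate 3 stood nearest to the young libraries.

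At the Z-disc and in myosin-binding protein C the ratio lay the other way. Actn3 to Actn2, the alpha-actinin gene used in all fibres and in heart, was 4.77, 5.43 and 5.41 in young and 12.95, 12.3 and 18.6 in aged replicates 1, 2 and 3. Actn2 fell from 815, 813 and 807 to 325, 342 and 268 FPKM (log2 change −1.39 ± 0.09, limma adjusted p = 5.24e-05), so that it made up 16.2% of Actn3 plus Actn2 in young and 6.59% in aged muscle. Myoz1 to Myoz2, the slow and cardiac myozenin gene, ran from 14.5 to 18.9 in young and from 62.55 to 78.9 in aged libraries, with Myoz2 at −1.99 ± 0.10 (limma adjusted p = 1.76e-05). Mybpc2 to Mybpc1, the gene of the form named slow, was 1.30, 1.70 and 1.53 in young and 2.25, 2.10 and 1.87 in aged replicates 1, 2 and 3, with Mybpc1 at −0.16 ± 0.07 (limma adjusted p = 0.0879). Unlike Tnnt1, Mybpc1 was no trace, at 40.0% of Mybpc2 plus Mybpc1 in young and 32.6% in aged muscle. The ratio overlapped between the ages for Myl1 to Myl3 (0.21 on the log2 scale, aged minus young, exact p = 0.6, two-sided) and Tpm1 to Tpm3 (0.15, exact p = 0.4).

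**Figure D3:**
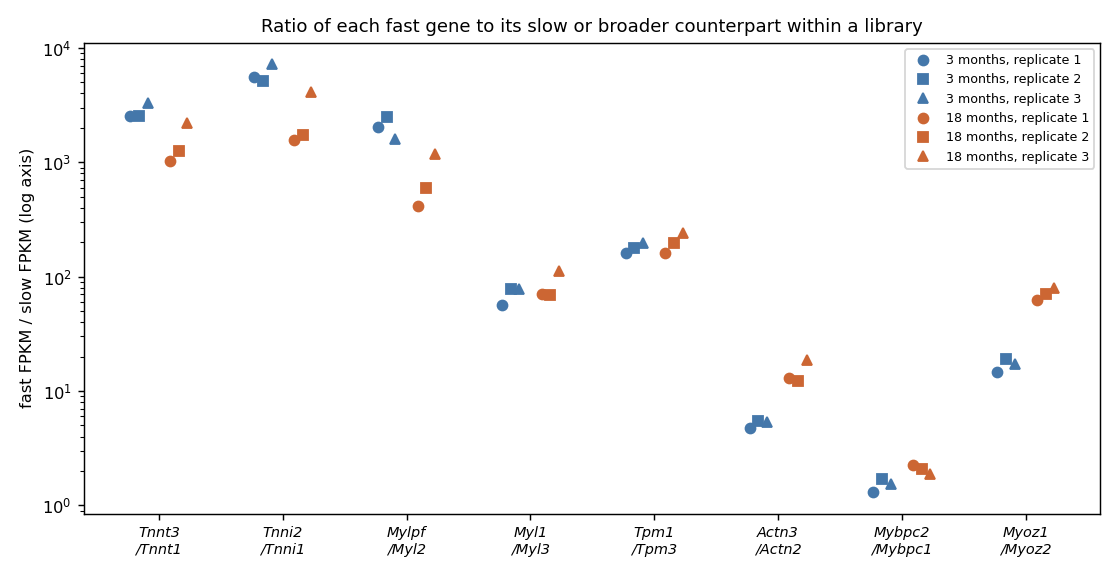
FPKM of each fast gene divided by that of its slow or broader counterpart (vertical log axis) in each library, blue at 3 months and orange at 18 months, with a symbol for each replicate. Ratios for Tnnt3, Tnni2 and Mylpf are lower in the aged libraries, those for Actn3, Mybpc2 and Myoz1 are higher, and those for Myl1 and Tpm1 overlap.

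Other genes of the sarcomere, taken from lists chosen by role, moved by more than the 9 fast genes in several cases. Of 13 other thin filament genes tested, 5 rose, 5 fell and 3 did not pass (median log2 change 0.10), with 3 higher at a minimum of 5 FPKM and 3 lower with no minimum. Acta1, the main skeletal actin gene and the highest of all listed, fell from 30067 ± 1551 to 22781 ± 2359 FPKM (limma adjusted p = 0.00794). Its log2 change was −0.40, and 0.00 with quantile normalization, where a value follows only the gene's rank. Without the minimum the change of Acta1 stayed at −0.40 and its adjusted p was 0.0726. Neb, the gene of the thin filament ruler nebulin, rose from 1212 ± 54.3 to 1459 ± 57.0 FPKM (adjusted p = 0.00801, and 0.0718 with quantile normalization). Tpm2, of beta-tropomyosin, fell from 5167 ± 52.0 to 4259.8 ± 455 FPKM (adjusted p = 0.0222), a call lost under both rescalings (0.0590 and 0.0658), without young replicate 2 (0.0628) or 3 (0.0657) and without the minimum (0.0636). The widest falls were those of Actc1, the cardiac actin gene (−4.53), and Lmod2, a leiomodin gene of filament length (−2.04). Acta1 and Actc1 are near-identical in their coding sequence, so reads could be split between them. The slow troponin genes Tnnc1 (1.13) and Tnni1 (1.12) rose, and the Tnnc1 call was lost with robust estimation (0.0523) and on leaving out young replicate 2 or 3 or aged replicate 2 (0.0583 to 0.0655). In aged replicate 3 Tnnc1 and Tnni1 were at 3.28 and 2.47 FPKM, the aged values nearest to the young means of 2.53 and 1.62 FPKM.

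Among 14 other genes of the thick filament and M-band, 3 rose, 6 fell and 5 did not pass (median −0.32). Mybph, a relative of myosin-binding protein C, fell by 2.58 ± 0.33 and Myh2, of type 2A fibres, changed by −2.12 ± 0.11. Myh7 (1.64) and Myl2 (1.16), both of slow myosin, were the widest rises, and Myh7 lost its call with 4 of the 6 libraries left out in turn (0.0603 to 0.0756), with robust estimation (0.0699) and with voom (0.0531). In the Z-disc list of 18 genes, 2 rose, 10 fell and 6 did not pass (median −0.37). The count of rises was 1 without any 1 library but aged replicate 2, and also with median-of-ratios scaling or with no minimum. Beside Actn2 and Myoz2 the falls included Csrp3, of the muscle LIM protein (−2.89 ± 0.23), and Fhl1, of a LIM-domain protein (−1.57 ± 0.07). Actn3 and Myoz1 did not pass, like 6 of the 18 genes of this list.

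Genes around light chain phosphorylation moved both ways, with 3 higher, 3 lower and 2 not called of 8 tested, and with 1 lower without young replicate 1 or 2. Calm2 and Calm3, which encode calmodulin, the calcium sensor that switches on the kinase made from Mylk2, rose by 0.86 ± 0.10 and 0.50 ± 0.08. Mylk4, a relative of Mylk2, averaged 1077 ± 10.7 FPKM in young muscle and 675 ± 227 FPKM in aged muscle (−0.73, adjusted p = 0.0261), with a change of −0.44 without aged replicate 2, the lowest library. It lost its call without any 1 young library (0.0596 to 0.0716), with robust estimation (0.0582), quantile normalization (0.0646) or no minimum (0.0522).

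Of 17 tested regulators of fast fibre genes and calcineurin signalling, 9 rose, 2 fell and 6 did not pass (median 0.36), with 1 lower at a minimum of 5 FPKM. Tead4 and Tead1, of factors that bind the MCAT motif printed in 3 of the 4 windows, rose from 3.52 ± 0.238 to 8.66 ± 1.53 FPKM and from 81.3 ± 3.55 to 122.9 ± 7.93 FPKM. Those windows are of Myl1, which fell, and of Tpm1 and Mybpc2, which rose, and a link to the TEAD genes was not tested. Eya1, a coactivator of homeobox factors that drive fast fibre genes, rose by 0.89 ± 0.09, and Mef2a by 0.62 ± 0.07. Among 13 fast fibre genes outside the sarcomere 1 rose, 5 fell and 7 did not pass (median −0.14). Without young replicate 3 there were 0 higher and 2 lower, and without young replicate 1 or aged replicate 1 there were 0 higher. The falls there were led by Mstn, of myostatin (−0.72), Casq1, of the calcium store (−0.54), and the glycolytic genes Gpd1 (−0.35) and Pgam2 (−0.35). The Gpd1 and Pgam2 calls were lost without young replicate 3 (adjusted p = 0.0753 and 0.0576), and without aged replicate 1 the change of Gpd1 was −0.23.

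**Figure D4:**
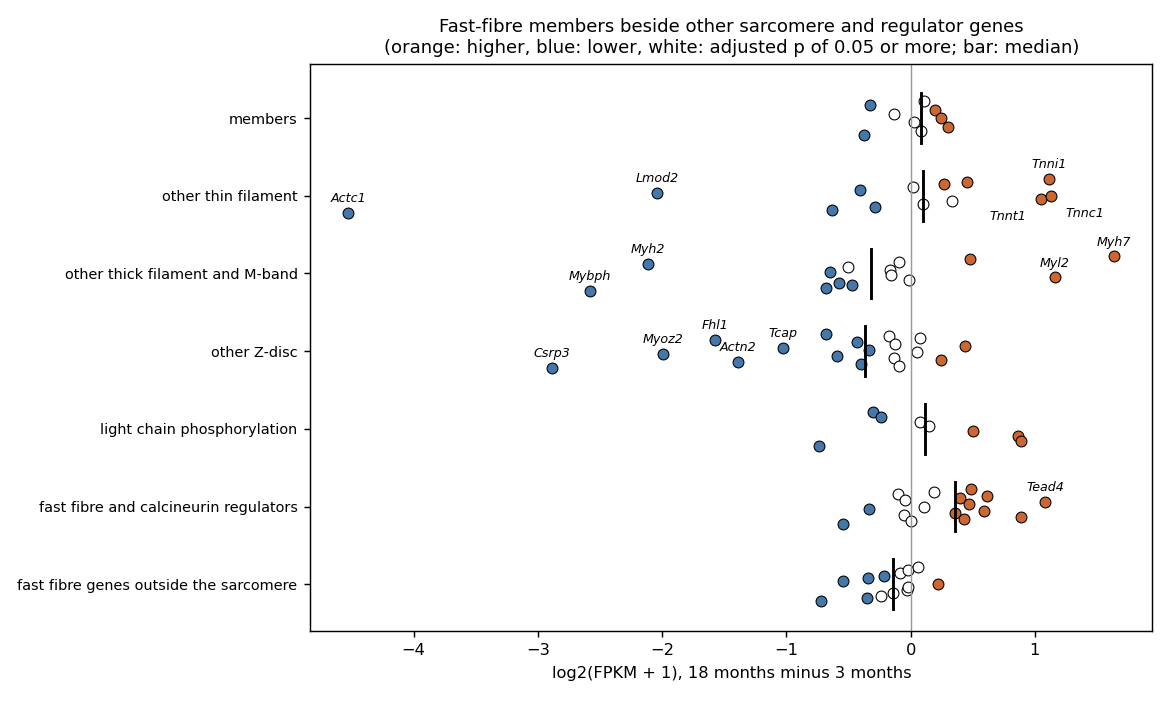
Log2(FPKM + 1) at 18 months minus 3 months (horizontal axis) of the 9 fast genes (members) and of the other lists, a point for each tested gene, orange for called higher, blue for called lower and white for not called, with a bar at the list's median. The 9 fast genes lie between −0.37 and 0.30, while Actc1 lies at −4.53 and Csrp3 at −2.89.

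Markers of other cell types and the share of mitochondrial transcripts moved with age as well. The summed FPKM of 12 fibroblast, matrix and tendon genes lay between 1359 and 2069.9 in young and between 302 and 382 in aged libraries, with 10 of 12 lower and 0 higher, and they held at most 0.388% of the listed FPKM. Such a sum is set mainly by the highest genes of its list and does not give the change of each marker. The median log2 change of these 12 genes was −1.63, and 2 of them did not pass. Endothelial genes summed to between 178 and 197 in young and between 140.0 and 169 in aged libraries (4 of 6 lower, 1 higher), macrophage genes to between 29.5 and 47.1 and between 13.5 and 26.8 (4 of 6 lower, 0 higher). Schwann cell genes summed to between 75.7 and 86.5 and between 51.5 and 52.7 (2 of 4 lower, 0 higher), and smooth muscle and pericyte genes to between 179 and 199 and between 161 and 175 (3 of 6 lower, 0 higher). No marker was at 0 in all libraries, and the part of these cells in the changes was not tested. In bulk muscle, fewer cells of a type and less RNA per cell cannot be told apart. Mitochondrially encoded genes held 12.1% ± 0.341 of the listed FPKM in young and 15.5% ± 0.311 in aged libraries. With the libraries rescaled to the nuclear-encoded genes, Tnnt3 was at 0.28, Tpm1 at 0.33, Mybpc2 at 0.39, Mylpf at −0.24 and Myl1 at −0.29, each still called.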

How the data were processed

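RNA of the tibialis anterior muscle was measured in 3 young and 3 aged samples, grouped by their titles. The authors deposited FPKM values, in 1 table a library. The tools named in the submitters' processing notes are bcl2fastq 2.19, TopHat and DESeq2, and the build is mm9, but the listed positions follow GRCm38 (89.0% of genes with the same start as in GENCODE M21). The sources used here do not say how the 11239 listed genes were chosen. Tnnc2 was not analysed here, and some genes that the naming rule picks are not reported here.

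Whole fragment counts were recovered from the FPKM steps for 100% of genes (tolerance 0.001), giving library totals of 71984420 to 102135094 fragments. Replicates differed beyond sampling noise (chi-square per degree of freedom 29.9 to 76.4), so none was counted as a copy. Genes were tested from a mean of 1 FPKM up, as log2(FPKM + 1) with limma 3.58.1 in R 4.3.3 (empirical Bayes with trend, two-sided, Benjamini-Hochberg over 7690 genes). This scale understates changes of low genes. The script was tested on simulated data. After subtraction of group means, libraries with the same replicate number had correlations over all genes of 0.177, 0.182 and 0.136, and libraries of unlike number −0.192 to 0.0358. The number was therefore also tried as a block, although subtracting group means shapes these values and the labels do not say what the number marks. Voom used the recovered counts. Named genes are the 9 measured, their counterparts and, in each other list, up to 4 called genes with the largest change. Acta1, Neb, Tpm2, Myh1 and Myh4 were named as partners of the members and others for their position. The members and lists were chosen with earlier results of these data known.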

Additional observations from a re-analysis of the deposited data

How the results depend on the processing

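Of the 9 fast genes, 3 were called higher and 2 lower, and the alternatives run were 16. The number called higher was 1, and the number called lower was 1, without the minimum of 1 FPKM (2 in all), and the number higher was 1 with quantile normalization. With 1 library left out it was 2 or 3 higher, 2 lower in each, and 4 to 5 in all. These are 44.4% to 55.6% of the 9, beside 39.4% to 49.9% of all genes tested in the same fits. With quantile normalization 44.4% of the 9 and 52.6% of all genes tested were called, and without the minimum 22.2% and 40.8%. Direction turned with quantile normalization for Tnnt3 (−0.066), Mylk2 (0.046) and Myoz1 (−0.13), and on leaving out 1 library for Actn3 (−0.0025 to 0.12) and Myoz1 (−0.027 to 0.071), both without aged replicate 3, and Tpm3 (−0.011 to 0.20), without aged replicate 1. With quantile normalization a value follows only the gene's rank in its library. The turn of Tnnt3 is therefore one of rank, while its FPKM was higher in every aged library than in any young one. In the fit with the replicate block the Tnnt3 call was lost (adjusted p = 0.0675), and no other call among the 9 genes changed. The log2 fast-to-counterpart ratios, with 1 FPKM added to both genes, were also taken with 1 library left out. Aged minus young, they ranged from −1.15 to −0.63 for Tnnt3, −1.36 to −0.79 for Tnni2, −1.88 to −1.17 for Mylpf, −0.020 to 0.33 for Myl1 (below 0 without aged replicate 3), 0.0035 to 0.29 for Tpm1, 1.28 to 1.58 for Actn3, 0.36 to 0.55 for Mybpc2 and 1.91 to 2.10 for Myoz1. The cause of these shifts was not tested. Over all genes 2097 were higher and 1885 lower, but 2727 and 1441 when rescaled to nuclear-encoded genes, a setting chosen after seeing the data. The 20 highest genes include 5 of the 9. Depth does not limit these values, while 3 samples an age does.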

Other observations

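Tnni2 and Tnnt3 are neighbours on chromosome 7, with 54426 bases between them, and the genes around them are named here for their position. Lsp1, a gene of leukocytes that lies between them, fell from 15.45 ± 2.77 to 11.2 ± 1.40 FPKM (log2 change −0.42 ± 0.13, limma adjusted p = 0.0278), a call lost on leaving out young replicate 1 (0.0704) and likewise for aged replicates 2 (0.0819) and 3 (0.0685), and with rescaling to nuclear-encoded genes (0.0602). Mrpl23, of a mitochondrial ribosomal protein, on the far side of Tnnt3, rose from 60.4 ± 2.65 to 69.0 ± 2.36 FPKM (0.19 ± 0.06, adjusted p = 0.0275), a call lost without any 1 library but aged replicate 1 (0.0536 to 0.0994). The imprinted noncoding RNA H19, beyond Mrpl23, fell by 2.98 ± 0.15. Of the other genes within 100000 bases, Ctsd (adjusted p = 0.589), Nctc1 (0.159) and Prr33 (0.0732) did not pass, and Syt8 was under the minimum of 1 FPKM and was not tested.

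The mean log2 profile of the 9 fast genes, centred on its mean over the 6 libraries, ran from −0.0542 in young replicate 1 to 0.0693 in aged replicate 3. Among the genes nearest to it, of 1148 others with a mean of at least 50 FPKM, were Atp6ap1, of the vacuolar proton pump, at a root-mean-square distance of 0.0224 over the 6 libraries, Phka1, of muscle phosphorylase kinase (0.0283), Tmem38a, of a potassium channel of the sarcoplasmic reticulum (0.0298), and Sod1, of superoxide dismutase (0.0298). None of these 4 was called by limma (adjusted p from 0.477 to 0.898). The mean profile averages genes that rose and genes that fell.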
